A study of Homo sapiens with 6 samples.

Results

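Long noncoding RNAs were followed in DMS53, an established small cell lung cancer cell line with neuroendocrine features. Cells with and without enforced expression of OC2 (ONECUT2), a homeobox transcription factor, were compared. The RNAs are MALAT1, NEAT1, NORAD and the small nucleolar RNA (snoRNA) host transcripts GAS5, ZFAS1, SNHG1, SNHG5, SNHG6, SNHG8 and EPB41L4A-AS1. They were taken by name as 10 of the 62696 annotated genes in the count tables. Control cells carried the empty lentiviral vector pLenti-C-mGFP-P2A-Puro, OC2-OE cells carried an mGFP-tagged ONECUT2 open reading frame under constitutive expression, and both were selected with puromycin and grown in RPMI-1640 with serum. RNA-Seq was performed on 3 libraries per group, from experiments that the study calls independent. Libraries of the same group differed little, with 1.32 to 2.18 times the variance of sampling alone. The biological coefficient of variation was 2.2%. P-values measure only this small spread, and whether the libraries come from separate cultures or transductions was not tested. The comparison rests on 1 cell line, and in a bulk library fewer cells of a type and less RNA per cell cannot be told apart.

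These RNAs differ in where they act and in how they are made. MALAT1 and NEAT1 lie next to each other in the genome and stay in the nucleus, where MALAT1 concentrates in nuclear speckles, the stores of splicing factors, and the long form of NEAT1 builds paraspeckles, bodies that hold RNA-binding proteins such as NONO and SFPQ. NORAD is a mostly cytoplasmic RNA that binds Pumilio proteins such as PUM2 through many copies of a short element. The SNHG genes, GAS5, ZFAS1 and EPB41L4A-AS1 carry snoRNAs in their introns, which guide chemical modification of ribosomal RNA, and the spliced exons of several of them start with a pyrimidine tract and are removed by nonsense-mediated decay when translated.

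Sequences around the annotated starts of these genes are shown because the start decides whether a host transcript belongs to the pyrimidine-tract class. Entries of the RefSeq promoter table (GRCh38.p14) were read for 8 of the 10 genes, with a pair of starts for MALAT1. No start was examined for NEAT1 or SNHG6. Each line gives 30 bases before and 30 bases from the first transcribed base, 5′ to 3′ on the gene's own strand, and capitals mark the unbroken run of C and T that contains the first transcribed base.
SNHG5, chr6:85678704-85678763, minus strand: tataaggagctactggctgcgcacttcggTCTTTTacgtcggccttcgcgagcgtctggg
ZFAS1, chr20:49278612-49278671, plus strand: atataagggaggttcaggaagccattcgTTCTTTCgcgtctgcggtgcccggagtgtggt
SNHG1, chr11:62855856-62855915, minus strand: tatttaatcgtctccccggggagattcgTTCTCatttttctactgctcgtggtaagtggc
GAS5, chr1:173869016-173869075, minus strand: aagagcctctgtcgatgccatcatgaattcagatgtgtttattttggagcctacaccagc
SNHG8, chr4:118278732-118278791, plus strand: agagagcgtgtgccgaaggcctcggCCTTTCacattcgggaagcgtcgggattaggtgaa
EPB41L4A-AS1, chr5:112160496-112160555, plus strand: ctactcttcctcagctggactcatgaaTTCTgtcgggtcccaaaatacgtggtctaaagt
MALAT1 first start, chr11:65497708-65497767, plus strand: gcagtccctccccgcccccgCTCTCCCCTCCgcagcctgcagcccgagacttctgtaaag
MALAT1 second start, chr11:65499015-65499074, plus strand: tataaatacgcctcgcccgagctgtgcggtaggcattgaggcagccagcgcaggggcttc
NORAD, chr20:36050931-36050990, minus strand: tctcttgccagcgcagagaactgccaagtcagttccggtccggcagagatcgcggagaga

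A start on C followed by at least 4 pyrimidines was present in SNHG5 and ZFAS1, and in 4.07% of the 35116 promoters in the table. Neither gene passed the threshold of the comparison between groups. The RefSeq start of GAS5 lies upstream of the gene as the count tables place it and is not in a run of C and T. The start of GAS5 as counted was therefore not examined. SNHG1 and SNHG8 start within runs of 5 and 6 bases of C and T but do not meet the rule. Because the rule reads from the annotated base only, it does not decide whether GAS5, SNHG1 or SNHG8 belong to the pyrimidine-tract class. The cores ATTGAT and ATCGAT, which homeobox factors of the ONECUT family are known to bind, were searched on both strands of the 300 bases from 250 before to 50 after each start. None of the 9 member entries, which leave out NEAT1 and SNHG6, held either core. Of all promoters, 6.26% held ATTGAT and 0.763% held ATCGAT. The E-box CACGTG was found in the NORAD entry and in 7.26% of all promoters.

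NORAD is shown further because its repeated element is the site that Pumilio proteins bind. The longest NORAD transcript of GENCODE release 29 (5339 bases) held 15 copies of TGTANATA, searched on the transcript strand, of which 10 read TGTATATA, 4 TGTAAATA and 1 TGTACATA. Among 4358 transcripts within 10% of its length the median was 0 copies, 42.9% had at least 1 copy and 0.0688% had as many as NORAD. The other members held between 0 and 6 copies in their longest transcripts, with 6 in the 22743 bases of NEAT1 and 0 in MALAT1. At 3 places in NORAD a pair of elements is separated by 1 base, and capitals mark the elements.
NORAD position 1442, chr20:36049498-36049525, minus strand: tatctgTGTATATAgTGTACATAaagga
NORAD position 2639, chr20:36048301-36048328, minus strand: ctatacTGTATATAtTGTATATAtaacg
NORAD position 3275, chr20:36047665-36047692, minus strand: gtgctgTGTATATAgTGTATATAagcgg

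The libraries held between 16533284 and 19099337 counted read pairs. Counts for ONECUT2 were 465, 412 and 394 in control and 74031, 68853 and 72763 in OC2-OE (log2 fold change 7.32, edgeR adjusted P-value 1.95e-158), and each library matched its label at this gene. Of the epithelial and neuroendocrine markers, EPCAM, KRT18, SYP, CHGA, INSM1 and NCAM1 were all detected in both groups, and all 6 differed between them. CHGA was higher by 1.06 on the log2 scale (72.2 to 150 counts per 1000000, CPM) and EPCAM by 0.34, while NCAM1 fell from 164 to 41.2 CPM, INSM1 by 1.93 on the log2 scale (329 to 86.6 CPM), KRT18 by 0.72 and SYP by 0.44 (335 to 246 CPM). The leukocyte, stromal and endothelial markers PTPRC, CD3E, CD68, DCN and VWF summed to between 0 and 17 counts per group and were too low to test. The other 3 of these 8 markers were the collagen genes COL1A1 (21.5 and 27.8 CPM, log2 fold change 0.37, higher) and COL1A2 (0.532 and 1.19 CPM, not past the threshold) and PECAM1 (2.39 and 2.46 CPM, log2 fold change 0.02). Mitochondrial genes took 2.28% to 2.47% of control counts and 2.88% to 2.90% of OC2-OE counts, and their part in the results below was not tested.

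Of the 10 RNAs, 6 were higher in OC2-OE and 0 were lower at an adjusted P-value under 0.001 in edgeR's quasi-likelihood test over 17307 genes. The share called, 60%, was close to the background of 56.5% of all tested genes, of which 27.8% were higher and 28.7% lower. The count of lower members was also 0 with DESeq2 and with limma voom, and 1 member was lower at an unadjusted P-value under 0.05. At an adjusted P-value under 0.05, where 71.4% of all tested genes passed and 35.7% were lower, that 1 member passed. With a log2 fold change of at least 1 in addition, 1 member was higher, beside 8.29% of all tested genes. Over the 10 RNAs the log2 fold change had a median of 0.22, against 0.01 over all tested genes. Among 2127 tested genes of a long noncoding type in GENCODE release 29, 34.7% were called, 18.3% higher and 16.5% lower, with a median of 0.12, and of the protein-coding genes 62.2% were called, 30.3% higher and 32% lower. In 6 of the 10 RNAs every OC2-OE library lay above every control library and in 0 every library lay below, where 73.2% of all tested genes did not overlap, 36.5% above and 36.7% below. Of the long noncoding genes 58% did not overlap, 32.5% above and 25.5% below.

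**Figure D1:**
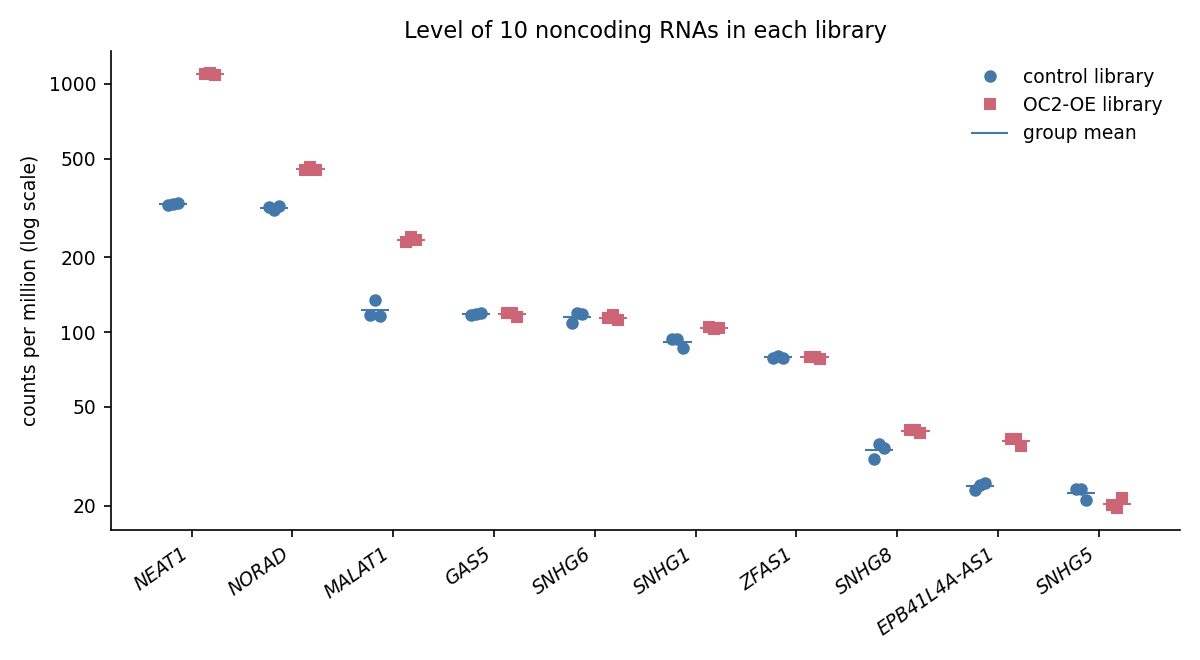
Level of each RNA in CPM (log axis) in the 3 control libraries (circles) and the 3 OC2-OE libraries (squares), with group means as lines. The groups are apart for NEAT1 (328 against 1096), NORAD, MALAT1, SNHG1, SNHG8 and EPB41L4A-AS1 and overlap for GAS5, SNHG6, ZFAS1 and SNHG5. Levels are not corrected for gene length, so heights of different RNAs are not comparable.

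NEAT1, the scaffold of paraspeckles, had the largest log2 fold change of the 10. Its gene spans chr11:65422774-65445540 on the plus strand, and its counts were 6057, 5464 and 5405 in control and 20961, 19228 and 19783 in OC2-OE. The 3 OC2-OE libraries were all above the 3 controls and close to one another, at 328 ± 4.22 CPM (SD, n = 3) in control and 1096 ± 12.1 in OC2-OE. The log2 fold change was 1.74 (SE 0.022, 95% confidence interval 1.70 to 1.79, adjusted P-value 3.04e-101), a 3.35-fold higher level. Of the 17307 tested genes, 568 had a log2 fold change at least this high, NEAT1 included.

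MALAT1, the speckle-associated RNA whose gene lies on the same strand at chr11:65497688-65506516, also rose. It had 2182, 2266 and 1890 counts in control and 4418, 4183 and 4284 in OC2-OE. Control library 2 was the highest of its group, at 135 CPM beside 117 and 116, and lay well under the lowest OC2-OE library at 231. Mean levels were 123 ± 10.9 CPM in control and 236 ± 5.45 in OC2-OE, with a log2 fold change of 0.94 (SE 0.039, 95% confidence interval 0.86 to 1.02, adjusted P-value 8.55e-18). MALAT1 and the long NEAT1 form end without a poly(A) tail, and the libraries were made from poly(A) RNA, so the counts follow the captured part of each RNA. The short and long NEAT1 forms share 1 gene total and cannot be told apart.

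NORAD, at chr20:36045618-36051018 on the minus strand, rose less than either nuclear RNA. Its counts were 5967, 5189 and 5216 in control and 8601, 8026 and 8180 in OC2-OE. The OC2-OE libraries, at 449 to 463 CPM, did not overlap the controls at 310 to 321. Means were 317 ± 5.79 CPM and 454 ± 8.25 CPM, a log2 fold change of 0.52 (SE 0.024, 95% confidence interval 0.47 to 0.56, adjusted P-value 4.52e-42).

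The proportions of these 3 RNAs to each other shifted. On the log2 scale of CPM the ratio of NEAT1 to MALAT1 was 1.47, 1.27 and 1.52 in control and 2.25, 2.20 and 2.21 in OC2-OE, a difference in means of 0.80. For NEAT1 to NORAD it went from a mean of 0.05 ± 0.027 (SD) to 1.27 ± 0.012, and for MALAT1 to NORAD from -1.37 ± 0.15 to -0.94 ± 0.015. The groups did not overlap in any of the 3 ratios, and each gave an exact two-sided permutation P-value of 0.1, the smallest that 3 against 3 libraries allow. NEAT1 accounted for 25.8% to 26.5% of the counts on the 10 RNAs in control and 47.6% to 47.8% in OC2-OE. The 10 RNAs together took 0.121% to 0.124% of control counts and 0.231% to 0.237% of OC2-OE counts. All other long noncoding genes together took 1.22% to 1.23% in control and 1.21% to 1.22% in OC2-OE.

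**Figure D2:**
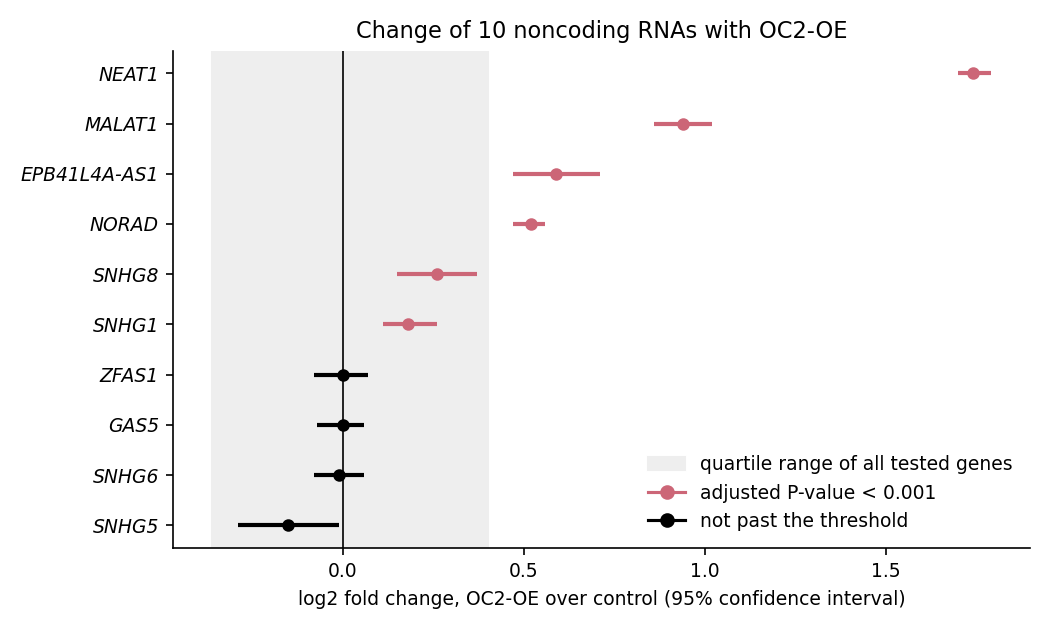
Log2 fold change of each RNA (OC2-OE over control, points) with its 95% confidence interval (lines), beside the range between the quartiles of all tested genes (grey band, -0.36 to 0.40). NEAT1, MALAT1, EPB41L4A-AS1 and NORAD lie above the band, SNHG8 and SNHG1 are higher within it, and ZFAS1, GAS5, SNHG6 and SNHG5 did not pass an adjusted P-value of 0.001, the first 3 of these changing sign with the scaling.

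Of the 7 snoRNA host transcripts, 3 rose, where 27.8% of all tested genes and 18.3% of the long noncoding ones were higher. EPB41L4A-AS1, which hosts a box H/ACA snoRNA and lies at chr5:112160526-112164818 on the plus strand, had 433, 407 and 403 counts in control and 709, 643 and 633 in OC2-OE. All 3 OC2-OE libraries were above the controls, with means of 24.1 ± 0.827 and 36.3 ± 1.34 CPM and a log2 fold change of 0.59 (SE 0.061, 95% confidence interval 0.47 to 0.71, adjusted P-value 4.66e-16). SNHG8, host of a further H/ACA snoRNA, at chr4:118278703-118285316 on the plus strand, had 577, 591 and 557 counts against 776, 696 and 716. Control library 1 was the lowest at 30.9 CPM, beside 35.3 and 34.3, and the OC2-OE libraries lay at 39.3 to 40.5. The log2 fold change of SNHG8 was 0.26 (SE 0.056, 95% confidence interval 0.15 to 0.37, adjusted P-value 2.06e-05), and without control library 1 it was 0.20 with an adjusted P-value of 0.00224, which does not pass the threshold. SNHG1, host of a cluster of box C/D snoRNAs at chr11:62851978-62855953 on the minus strand, had 1752, 1567 and 1405 counts in control and 2003, 1784 and 1886 in OC2-OE. The highest control library of SNHG1 was at 93.8 CPM and its lowest OC2-OE library at 103. Its log2 fold change was 0.18 (SE 0.037, 95% confidence interval 0.11 to 0.26, adjusted P-value 5.73e-06).

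The other 4 hosts did not pass the threshold, and their intervals limit how far they could have moved. GAS5, a host of several box C/D snoRNAs named for its rise in growth-arrested cells, lies at chr1:173858559-173868882 on the minus strand and had 2190, 1968 and 1941 counts in control and 2287, 2055 and 2097 in OC2-OE. Its mean was 118 CPM in each group, with a 95% confidence interval of the log2 fold change from -0.07 to 0.06 (adjusted P-value 0.915). ZFAS1, at chr20:49278178-49299600 on the plus strand, had 1476, 1337 and 1285 counts against 1528, 1372 and 1427, with means of 79.3 ± 0.514 and 79.1 ± 0.712 CPM and an interval from -0.08 to 0.07 (adjusted P-value 0.933). Both groups of libraries overlapped in each of these genes. SNHG6, at chr8:66920561-66926398 on the minus strand, had 2037, 1984 and 1915 counts against 2178, 2027 and 2036, with means of 115 ± 5.29 and 114 ± 2.65 CPM and an interval from -0.08 to 0.06 (adjusted P-value 0.785). The sign of the log2 fold change of GAS5, ZFAS1 and SNHG6 changed when libraries were scaled by library size only or by the upper quartile.

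SNHG5, at chr6:85650491-85678932 on the minus strand, was the member with the fewest counts and the only one with an interval wholly under 0. It had 436, 392 and 343 counts in control and 387, 340 and 389 in OC2-OE. The lowest control library, at 21.1 CPM, lay inside the OC2-OE range of 19.6 to 21.4. The log2 fold change was -0.15 (SE 0.071, 95% confidence interval -0.29 to -0.01), and the adjusted P-value of 0.0492 missed the threshold of 0.001.

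Levels were also compared per length, as reads per 1000 bases of joined annotated exon per 1000000 (RPKM). By this length NORAD stood highest in both groups, at 58.6 ± 1.07 in control and 84.0 ± 1.53 in OC2-OE. In control it was followed by SNHG6 at 45.6 ± 2.09, GAS5 at 23.9 ± 0.231 and SNHG1 at 23.0 ± 1.06, the last pair lying within 1 SD of each other. NEAT1 at 14.4 ± 0.185 and MALAT1 at 13.9 ± 1.24 were also within 1 SD, and ZFAS1 at 9.54, EPB41L4A-AS1 at 5.61, SNHG8 at 5.06 and SNHG5 at 1.79 came last. In OC2-OE, NEAT1 reached 48.2 ± 0.533 RPKM and by this joined length stood second, above SNHG6 at 45.2 ± 1.05. MALAT1 reached 26.7 ± 0.617 and lay within 1 SD of SNHG1 at 26.1 ± 0.200. The length is that of all annotated exons joined, retained introns included, so the RPKM of a host whose spliced RNA is short is understated. The order depends on this choice. SNHG6 has 2527 joined exon bases but a longest transcript of 648, where NORAD has 5401 and 5339. By the longest transcript SNHG6 would stand above NORAD in both groups, and ZFAS1 and GAS5 above NORAD in control only. NEAT1 in OC2-OE would then stand under SNHG6, NORAD, ZFAS1, GAS5 and SNHG8. Not all 10 RNAs are abundant. By CPM in control, SNHG5 stood at percentile 52.8 of tested genes, EPB41L4A-AS1 at 54.1 and SNHG8 at 60.9, with NEAT1 highest at 97.4.

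Other snoRNA host transcripts moved in both directions. Of 23 further noncoding hosts, 20 were tested, 3 were higher and 4 were lower, with a median log2 fold change of -0.14. The share called was 35%, against 56.5% of all tested genes and 34.7% of the long noncoding ones. SNHG4 rose by 0.72 on the log2 scale (22.4 to 37.1 CPM), SNHG29 by 0.37 (394 to 508 CPM) and SNHG15 by 0.33. DANCR, a host studied as a differentiation antagonist, fell by 0.90 (58.7 to 31.3 CPM), SNHG3 fell by 0.38, SNHG7 by 0.33 and SNHG14 by 0.20. The snoRNAs themselves were hardly counted in these libraries. Of 26 snoRNA names, 13 were found inside one of the 10 genes on its strand, as 14 entries, which held 12 counts over all 6 libraries. All 12 counts fell on SNORD12C and SNORD12B within ZFAS1.

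Genes for proteins of the snoRNA particles that passed the threshold were mostly lower. Of 17 snoRNP proteins and assembly factors, 10 were lower and 1 was higher, with a median log2 fold change of -0.21 and 64.7% called. Among all tested protein-coding genes 62.2% were called, 30.3% higher and 32% lower, which is the background for this list and for those that follow. DKC1, the pseudouridine synthase of H/ACA particles, fell by 0.45 (265 to 194 CPM), NOLC1, a nucleolar chaperone of these particles, by 0.37 (506 to 393 CPM), and ZNHIT3, a box C/D assembly factor, by 0.44. Of 25 protein-coding snoRNA hosts, 13 were lower and 5 higher (72% called), with a median of -0.16. EIF4G2, a translation initiation factor, fell by 0.59 (1500 to 998 CPM), SF3B3, a splicing factor, fell by 0.57, and HSPA8, a chaperone with 2274 CPM in control, had -0.06 and did not pass. EIF4A1, an initiation factor whose exons are also annotated in a read-through gene, was at 8.40 CPM in control and rose by 0.54.

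Genes sharing the pyrimidine-tract start were split. Of 24 such translation genes, 23 were tested, 7 were higher and 11 lower (78.3% called beside 62.2% of protein-coding genes), with a median log2 fold change of -0.09. The elongation factors EEF1A1 and EEF2 were higher by 0.13 and 0.09, at 4055 and 3689 CPM in control, while HNRNPA1, a splicing regulator, fell by 0.48 and RACK1, a ribosomal scaffold protein, by 0.43. PFDN5, a prefoldin subunit at 6.93 CPM in control, rose by 0.51. Read pairs overlapping several genes were not counted, and whether this lowers the PFDN5 level was not tested. Of 17 nonsense-mediated decay factors, 7 were lower and 2 higher (52.9% called), with a median of -0.11. UPF1, the central helicase, fell by 0.22 (231 to 198 CPM), SMG5 by 0.27, SMG9 by 0.52 and MAGOHB, an exon junction protein, by 0.51, whereas UPF3A rose by 0.49.

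Genes for proteins of the paraspeckle, the body that NEAT1 builds, were read beside it. Of 27 listed, 25 were tested, 13 were lower and 3 higher, with a median log2 fold change of -0.15, and NEAT1 itself was at 1.74. The share called was 64%, close to the 62.2% of all protein-coding genes. The core proteins SFPQ, NONO and PSPC1 fell by 0.58 (619 to 414 CPM), 0.25 (681 to 575 CPM) and 0.35 (101 to 79.2 CPM), and HNRNPK, which governs NEAT1 end choice, fell by 0.23. RBMX, an hnRNP protein, fell by 0.68. Those higher were TAF15 at 0.34, CIRBP at 0.33 and RBM4B at 0.22.

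Nuclear speckle proteins went both ways, with 8 of 25 higher, 10 lower (72% called beside 62.2%) and a median log2 fold change of -0.02. CLK4 and CLK1, kinases that phosphorylate SR splicing factors, rose by 1.12 (5.93 to 12.9 CPM) and 0.58 (121 to 181 CPM), and SRSF11, an SR-related protein, rose by 0.66. SRRM2, a speckle scaffold, rose by 0.41 (573 to 761 CPM), and SF3B1, a spliceosome subunit, had 0.08 and did not pass. Of 12 genes for the processing and 3′ end of MALAT1, 6 were lower (50% called) and the other 6 did not pass, among them RPP40 at 0.29. The RNase P subunits POP1, POP7, POP4 and RPP30 fell by 0.54, 0.38, 0.28 and 0.21, METTL16, which binds the MALAT1 triple helix, by 0.26, and RPP25 had 0.10.

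Of 8 listed partners of NORAD, 6 were lower (75% called, where 32% of protein-coding genes were lower), with a median log2 fold change of -0.28. PUM2, a Pumilio protein that NORAD binds, was at 119 CPM in control and 115 in OC2-OE (log2 fold change -0.05) and did not pass. ALYREF, an mRNA export adaptor, fell by 0.85 (92.1 to 51.0 CPM), TOP1, a DNA topoisomerase, by 0.72 (282 to 171 CPM), RBMX by 0.68 and KHDRBS1 by 0.31. RBMX stands on both the NORAD and the paraspeckle list.

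Among 38 other long noncoding RNAs of known name, 32 were tested, 15 were higher and 6 lower (65.6% called beside 34.7% of all tested long noncoding genes), with a median log2 fold change of 0.29. The log2 fold changes ran from -2.93 to 1.57, and the 3 largest in size among those called lower were in RNAs of low level, NKX2-1-AS1 at -2.93 (7.57 to 0.983 CPM), H19, an imprinted RNA, at -2.44 (1.03 to 0.185 CPM) and DLEU2 at -1.33 (6.82 CPM in control). Of the RNAs with a mean log2 CPM of at least 3, LUCAT1, a stress-inducible RNA, rose by 1.57 (16.2 to 47.8 CPM), LINC-PINT, a p53-induced RNA, by 1.21 (8.25 to 19.1 CPM) and MIR22HG, the host of a microRNA, by 1.10 (21.2 to 45.2 CPM). MIAT, a nuclear RNA of neural tissue, fell by 0.82 (203 to 115 CPM), and TUG1 fell by 0.13 (203 to 186 CPM).

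Several of these RNAs share their locus with a gene on the other strand, and the libraries and the counting kept the strand. ZNFX1, the helicase gene transcribed away from ZFAS1, had 742, 679 and 652 counts in control and 1500, 1346 and 1475 in OC2-OE, a log2 fold change of 0.98 (adjusted P-value 6.04e-41), while ZFAS1 was at 0.00. At this locus the gene on the other strand passed the threshold and the noncoding RNA did not, a difference that was not itself tested. ZBTB37, which overlaps GAS5, had 0.05 and did not pass, and GAS5 itself was at 0.00.

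At other loci the changes were closer in size. SLC3A2, an amino acid transporter subunit gene that starts 51 bases from SNHG1, rose by 0.35 (226 to 287 CPM), and SNHG1 rose by 0.18. TALAM1, the antisense transcript of MALAT1, had 22, 12 and 19 counts in control and 44, 22 and 39 in OC2-OE, a log2 fold change of 0.90 that did not pass (adjusted P-value 0.00266). A control library and an OC2-OE library both had 22 counts. TALAM1 shares 7205 exon bases with MALAT1, and whether its few counts include MALAT1 reads assigned to the wrong strand was not tested. EPB41L4A had 0.22 (adjusted P-value 0.0156), PRSS12, which overlaps SNHG8, had 0.29 (adjusted P-value 0.0519) and MCMDC2, which overlaps SNHG6, had -0.32 (adjusted P-value 0.022), none of which passed.

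**Figure D3:**
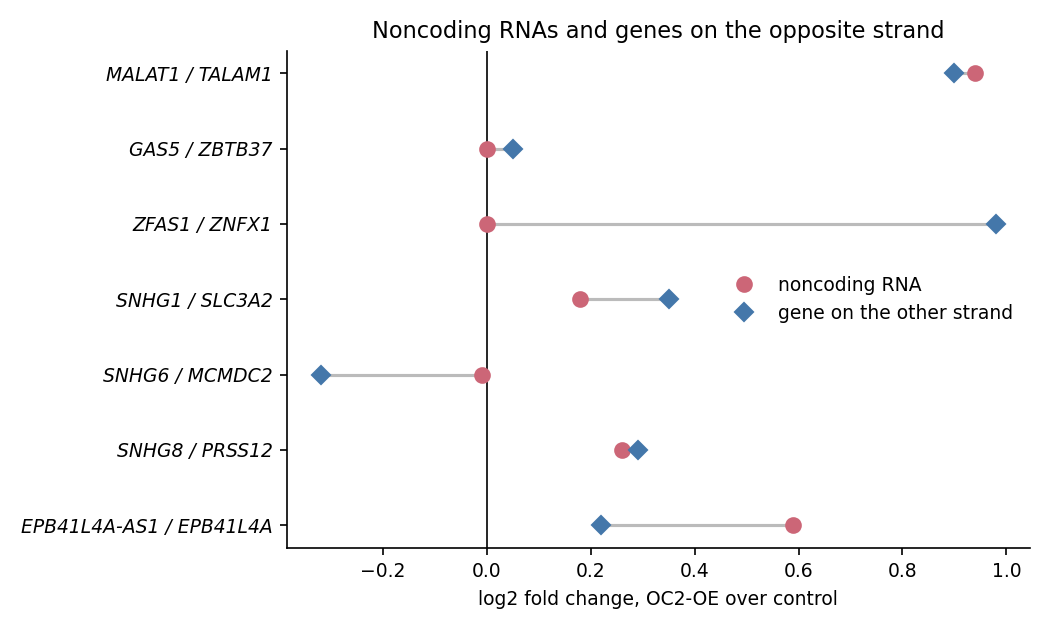
Log2 fold change (OC2-OE over control) of a noncoding RNA (circles) and of a named gene on the opposite strand that overlaps it or starts within 51 bases (diamonds), joined by a line. ZNFX1 (0.98) lies far from ZFAS1 (0.00), and TALAM1 (0.90, not past the threshold) lies near MALAT1 (0.94). ZFAS1, GAS5 and SNHG6 changed sign with the scaling.

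The nearest genes that do not overlap also varied. EPB41L1, 40486 bases from NORAD on the other strand, rose by 0.98 (41.7 to 82.4 CPM), and CNBD2 on the other side had 0.01. The 2 unnamed genes beside NEAT1 had 0.16 each and did not pass. CENPL near GAS5 fell by 1.20 and RC3H1 had -0.15. DDX27 and B4GALT5 beside ZFAS1 fell by 0.18 and 0.12, WDR74 beside SNHG1 had 0.13, SYNCRIP beside SNHG5 had 0.00, and CGA, 1406566 bases from SNHG5, fell by 0.79. SGK3 near SNHG6 rose by 1.06 and TCF24 fell by 0.73, TRAM1L1 near SNHG8 had -0.14 and an unnamed gene on its other side rose by 0.87, NREP near EPB41L4A-AS1 rose by 0.26, and APC had -0.11.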

How the data were processed

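Stranded poly(A) RNA-Seq libraries of DMS53 cells were sequenced by the authors. Per the labels and the file headers, reads were aligned with STAR 2.7.9a to GRCh38 and the deposited values are raw counts of read pairs per GENCODE 42 gene (featureCounts 1.6.0, strand-specific, exons summed). Pairs overlapping several genes were not counted, which touches 15.4% of the exon bases of SNHG1, 13.7% of SNHG5, 6.69% of ZFAS1 and at most 3.52% of the others. Spliced and unspliced RNA are summed.

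Counts were normalized (TMM) and tested with edgeR 4.0.16 in R 4.3.3 (filterByExpr, quasi-likelihood test, Benjamini-Hochberg over 17307 genes, threshold 0.001 as in the study). CPM values use TMM-scaled library sizes. The procedure was tested on simulated data. Symbols were matched by identifier for 62625 of 62696 genes. Alternatives used DESeq2 1.42.0, limma 3.58.1, other scalings, filters and thresholds, a replicate block and each library left out.

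The members, gene lists and tests were chosen with earlier results of these data known. Named genes are the members, ONECUT2, the neighbours, and per list the 3 largest called changes (mean log2 CPM 3 or more) and the 2 highest levels. SNHG14, SNHG15, TAF15, CIRBP, RBM4B, RPP40, PUM2, NKX2-1-AS1, H19, DLEU2, METTL16 and the cell type markers were added after their values were seen. Some neighbours and partners are not reported here. P-values measure the spread between these libraries.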

Additional observations from a re-analysis of the deposited data

How the results depend on the processing

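NEAT1, MALAT1, NORAD, SNHG1 and EPB41L4A-AS1 stayed higher past the threshold of 0.001 under all 16 other fits, with log2 fold changes of 1.73 to 1.79, 0.90 to 1.01, 0.50 to 0.57, 0.14 to 0.23 and 0.56 to 0.64. SNHG8 was at 0.20 without control replicate 1 and did not pass there, and ranged from 0.20 to 0.30 when 1 library was left out. SNHG5 ranged from -0.20 to -0.10 over these fits and passed in none at 0.001. With a threshold of 0.05 it passed narrowly at -0.15 (edgeR adjusted P-value 0.0492), so that 1 of the 10 members was lower, and it missed 0.05 with limma voom (0.0519), DESeq2 (0.138), library size only (0.197) and upper-quartile normalization (0.163), with 0.0169 to 0.197 over the 16 fits. The values of GAS5, ZFAS1 and SNHG6 changed sign. With library size only they were 0.05, 0.05 and 0.04, with upper-quartile normalization 0.04, 0.04 and 0.03, under a filter of 10 counts per library GAS5 and ZFAS1 were 0.00, and with 1 library left out they ranged from -0.01 to 0.02, -0.01 to 0.01 and -0.05 to 0.01. Those scalings moved the median of all genes by 0.05 and 0.04. With a minimum absolute log2 fold change of 1, 1435 genes were higher and 1564 lower, 1 member was higher, 8 of the other long noncoding RNAs and 1 nuclear speckle gene were called, and 0 were called on the other lists. With a threshold of 0.05, 11 of 20 other snoRNA hosts and 15 of 17 decay factors were called, beside 71.4% of all tested genes.

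With the replicate number as a block, 4734 genes were higher and 4908 lower, 6 members were higher and 0 lower, and it changed no call among the 10 members at 0.001, with SNHG5 at an adjusted P-value of 0.0549. Same-numbered libraries had correlations of their deviations from 0.0135 to 0.0404, so the numbers were not taken to pair the samples. Depth limits SNHG5 most, with 340 to 436 counts per library.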
